A study of Mus musculus with 4 samples.

Results

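The genes described here are 10 of the 32285 genes counted in the series: Fos, Fosb, Jun, Junb, Jund, Atf3, Egr1, Nr4a1, Ier2 and Btg2. They were chosen by name as members of the AP-1 transcription factor family and other immediate-early genes, and all 10 were present in the gene list of every library. The material was mouse spleen. Mice 10 weeks of age, either wild-type C57BL/6 or TRIF-KO on a C57BL/6 background, received 100 µl of PBS or 9 µg of recombinant murine TNF into a vein, and spleens were taken 4 hours later. Red cells were lysed, dead cells were removed on magnetic columns, and single cells were captured for droplet RNA sequencing. There were thus 4 groups, PBS and TNF in each genotype, with 1 library per group, so no difference below has a replicate check. The labels give neither the knockout allele nor the number of mice behind a library. Every interval below is a 95% interval for counting error only.

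Immediate-early genes are transcribed within minutes of a stimulus without any need for new protein, because the factors that switch them on are already present and are activated by kinases. FOS proteins pair with JUN proteins, and each JUN protein can also pair with another JUN, to form AP-1, which binds DNA and acts downstream of MAP kinase signalling, including that from receptors for TNF. Their transcripts are short-lived, and tissue dissociation at warm temperature is a known inducer of the same genes in single-cell preparations. TRIF, encoded by Ticam1, is the adaptor that carries signals from the Toll-like receptors TLR3 and TLR4.

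The libraries held 2683, 6855, 6508 and 8060 cell barcodes and from 23614028 to 67276803 UMIs (unique molecular identifiers, each standing for 1 captured RNA molecule), ordered as PBS then TNF of wild-type, followed by PBS then TNF of TRIF-KO. The same order is used wherever 4 values are given. After filtering, 2448, 4966, 5364 and 6606 cells remained, with a median of 4406 to 7195.5 UMIs per cell. Cells were clustered without the members and without other response genes and named from marker genes, which gave 7 classes with at least 50 cells in every library: B-like, T-like, NK-like, neutrophil-like, monocyte/macrophage-like, dendritic-like and erythroid-like cells. Each class contained UMIs of every one of its own markers in all 4 libraries. Most dendritic-like cells, however, were not placed in that class when each cell was gated singly on class markers. The gate agreed for 31 of 74 and 30 of 194 such cells in wild-type PBS and TNF. In the libraries labelled TRIF-KO it agreed for 75 of 201 and 38 of 212, so in both genotypes for a smaller part with TNF. Pairs of libraries shared 3 to 15 barcodes. The whole-library level of Ticam1 was 6.88, 3.75, 8.52 and 5.79 CPM (UMIs per 1000000 UMIs of the library or class). It was not lower in the libraries labelled TRIF-KO than in wild-type, and since the allele is not given, a read at the end of the transcript outside a deleted part would check nothing. These libraries are therefore called by their label throughout.

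A member was treated as measured in a class when it had at least 100 UMIs over the 4 libraries and at least 50 CPM in at least 1 of them. By that rule 9 of the 10 members were measured in neutrophil-like cells, 7 in B-like, 7 in monocyte/macrophage-like, 7 in dendritic-like, 5 in T-like, 5 in NK-like and 2 in erythroid-like cells, 42 values in all. Atf3 was measured in no class. The level of 50 CPM was met only with TNF by Fos and Fosb in B-like cells and by Nr4a1 in neutrophil-like cells. It was met only with PBS by Fos and Egr1 in dendritic-like cells and by Fosb in neutrophil-like cells. The rule thus lets a gene in through the libraries where it is high, for members as for all genes. The counts of 2-fold differences below share this limit.

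Promoters are shown for Fos, Junb, Nr4a1 and Btg2, since these members had large differences with TNF in different classes and in different directions. RefSeq (GRCm38.p6) held a promoter entry for 8 of the 9 members that were looked up, and none for Ier2. Each sequence is the 250 bases before the gene's start in that entry, written 5′ to 3′ on the strand of the gene. Capitals mark the core CRE motif TGACG, or CGTCA where it lies on the opposite strand, a motif recognised by the CREB and ATF factors.

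Fos, chr12:85473640-85473889, plus strand: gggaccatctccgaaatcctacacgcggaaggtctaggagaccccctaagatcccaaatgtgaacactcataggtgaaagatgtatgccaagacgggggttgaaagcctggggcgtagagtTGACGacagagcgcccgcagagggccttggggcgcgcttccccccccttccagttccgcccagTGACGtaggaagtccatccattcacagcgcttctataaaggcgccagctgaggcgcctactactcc

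Junb, chr8:84978749-84978998, minus strand: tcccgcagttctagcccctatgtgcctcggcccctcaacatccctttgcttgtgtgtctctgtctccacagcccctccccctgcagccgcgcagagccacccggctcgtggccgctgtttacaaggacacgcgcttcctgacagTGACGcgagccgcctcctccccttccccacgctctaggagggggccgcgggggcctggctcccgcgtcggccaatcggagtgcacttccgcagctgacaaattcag

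Nr4a1, chr15:101266596-101266845, plus strand: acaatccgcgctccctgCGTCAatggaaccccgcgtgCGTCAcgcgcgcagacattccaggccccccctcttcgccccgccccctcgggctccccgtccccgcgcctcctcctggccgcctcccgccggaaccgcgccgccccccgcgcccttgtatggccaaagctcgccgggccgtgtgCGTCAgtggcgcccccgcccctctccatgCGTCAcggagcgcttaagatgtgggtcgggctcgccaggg

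Btg2, chr1:134079156-134079405, minus strand: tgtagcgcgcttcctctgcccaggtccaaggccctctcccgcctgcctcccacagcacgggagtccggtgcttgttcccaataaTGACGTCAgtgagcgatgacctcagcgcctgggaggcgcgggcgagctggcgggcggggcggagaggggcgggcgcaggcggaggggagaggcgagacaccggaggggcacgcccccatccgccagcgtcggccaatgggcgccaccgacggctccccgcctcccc

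The core motif was found, on either strand, in 6 of the 8 promoters and in 17.8% of the 32851 mouse promoters in the same table. Fos had 2, starting 129 and 66 bases before its start, together with a TATA box (TATAAA) 33 to 28 bases before it and a match to the NF-kB site 214 to 205 bases before it. Junb had 1, at 106 to 102 bases before its start. Nr4a1 had 4, the nearest 40 bases from the start, and a match to the EGR site (GCGNGGGCG) at 60 to 52 bases; in the Ensembl annotation this window lies inside the longer Nr4a1 gene span. In Btg2 both capitalised strands overlap in the full CRE palindrome TGACGTCA at 166 to 159 bases before the start, which was found in 1 of the 8 members and in 1.55% of all promoters. EGR sites were found in 3 of the 8 (4.70% of all promoters) and NF-kB sites in 2 (3.90%). No CArG box and no AP-1 site (TGANTCA) lay in these windows for the 8 members, against 1.47% and 6.75% of all promoters. All motifs were searched on both strands; the full CRE contains the core motif. The windows follow the starts of the RefSeq entries, which are not always those of the Ensembl annotation. The Jund window (chr8:70697489-70697738) ends before the Ensembl start of Jund at 70698949, with a gap between them. The Atf3 window (chr1:191183334-191183583) lies inside the Ensembl gene span (191170296-191218039). The motif counts over the 8 members rest on these windows. They are matches of letters, and no binding was measured.

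The members did not move together. In wild-type, Fos, Fosb and Junb in B-like cells and Jun and Junb in T-like cells were each at least 2-fold higher with TNF. In myeloid cells members were lower as well as higher. Fos, Jund and Btg2 in neutrophil-like cells, Fos in monocyte/macrophage-like cells, and Fos, Egr1 and Btg2 in dendritic-like cells were at least 2-fold lower, while Nr4a1 in neutrophil-like and Ier2 in monocyte/macrophage-like cells were at least 2-fold higher. Over the 42 measured values, 7 were at least 2-fold higher and 7 at least 2-fold lower with TNF in wild-type, against 6.31% and 13.1% of the values of all measured genes over the same classes. Between the libraries labelled TRIF-KO, 5 were higher (Fos, Fosb and Jun in B-like cells, Nr4a1 in neutrophil-like cells and Jun in monocyte/macrophage-like cells) and 7 lower (Fosb, Jund and Egr1 in neutrophil-like cells, Fos and Btg2 in monocyte/macrophage-like cells, Egr1 and Btg2 in dendritic-like cells), against 5.19% and 7.81% of all values.

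In B-like cells 3 of 7 measured members were at least 2-fold higher with TNF in wild-type, where 1.4% of all measured genes were, and 3 of 7 in the libraries labelled TRIF-KO (1.37%). Fos and Fosb, among these in both pairs, met the minimum level only with TNF. No member was 2-fold lower in B-like cells in either pair (1.84% and 0.467% of all genes). In T-like cells 2 of 5 were higher in wild-type (3.55%) and 0 of 5 in the libraries labelled TRIF-KO (2.36%), and none was 2-fold lower (4.93% and 0.834%). In neutrophil-like cells 1 of 9 was higher and 3 were lower in wild-type, where 10.6% and 26.8% of all genes were, so that the share of members that were lower is near that of all genes. The same counts, 1 and 3 of 9, were obtained between the libraries labelled TRIF-KO (9.15% and 24.1%). Nr4a1, the member that was higher in both pairs, met the minimum level only with TNF. Fosb, among the lower ones in the pair labelled TRIF-KO, met it only with PBS. In monocyte/macrophage-like cells 1 of 7 was higher and 1 lower in wild-type (10.8% and 18.4%), and 1 and 2 between the libraries labelled TRIF-KO (10.1% and 10.3%). In dendritic-like cells 0 of 7 were higher and 3 lower in wild-type (7.4% and 16.3%), and 0 and 2 between the libraries labelled TRIF-KO (4.46% and 7.08%). Among these lower members, Fos and Egr1 in wild-type and Egr1 in the other pair met the minimum level only with PBS. Their counts are therefore partly built in. In NK-like cells 0 of 5 passed 2-fold in either direction in either pair, where 4% of all genes were higher and 10.6% lower in wild-type, and 3.05% and 5.03% between the libraries labelled TRIF-KO. The same holds for the 2 members measured in erythroid-like cells (0.527% and 2.32% in wild-type, 1.48% and 0.211% between the libraries labelled TRIF-KO).

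**Figure D1:**
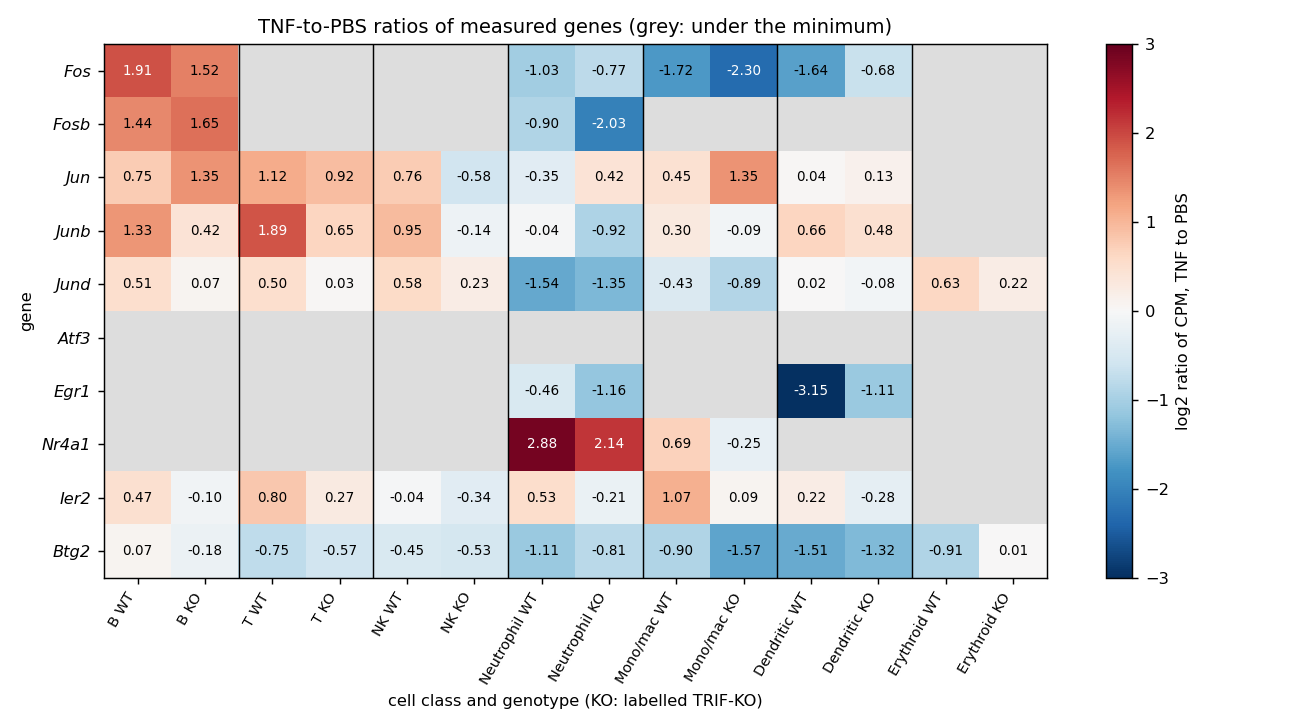
Log2 ratio of the TNF to the PBS library for each member (rows) in each of the 7 classes (columns), separately for the wild-type pair and the pair labelled TRIF-KO; values that did not reach the minimum count and level are set apart. Fos is positive in B-like cells (1.91 and 1.52) and negative in the neutrophil-like (-1.03 and -0.77), dendritic-like (-1.64 and -0.68) and monocyte/macrophage-like classes (-1.72 and -2.30).

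Fos (GRCm38, chr12:85473890-85477273 on the plus strand, ENSMUSG00000021250) encodes the founding FOS protein, which binds DNA only as a partner of a JUN protein. In B-like cells its level was 15.8 (13.2 to 18.7), 59.5 (55.3 to 63.8), 19.1 (16.8 to 21.7) and 54.8 (51.6 to 58.2) CPM. Both TNF libraries lay above both PBS libraries with no overlap of the intervals, and the level with TNF was 3.77-fold higher (3.13 to 4.56) in wild-type and 2.87-fold higher (2.5 to 3.31) in the pair labelled TRIF-KO. The T-like level was lower, at 7.82, 33.6, 12.8 and 33.2 CPM, under the minimum for a measured gene in every library, from 35, 244, 103 and 422 UMIs. Its ratio was in the same direction, 4.3-fold higher (3.01 to 6.32) in wild-type and 2.6-fold higher (2.09 to 3.26) in the pair labelled TRIF-KO. NK-like cells gave only 4, 2, 4 and 7 UMIs of Fos.

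In neutrophil-like cells, the class with the highest Fos level in all 4 libraries, the level was 758 (699 to 819.5), 371 (318 to 430.3), 876 (774 to 986) and 512 (487 to 538) CPM. Here the order of treatments was the opposite of that in B-like cells: both PBS libraries lay above both TNF libraries. The level with TNF was 2.04-fold lower (1.72 to 2.43) in wild-type and 1.71-fold lower (1.5 to 1.95) in the pair labelled TRIF-KO. Monocyte/macrophage-like cells had Fos at 217 (193 to 243), 65.7 (48.7 to 86.6), 200.2 (177 to 225) and 40.7 (32.2 to 50.7) CPM, again with no overlap between PBS and TNF. It was 3.3-fold lower (2.44 to 4.55) with TNF in wild-type and 4.92-fold lower (3.82 to 6.41) in the pair labelled TRIF-KO. The dendritic-like level was 92.5 (75.1 to 113), 29.8 (19.9 to 42.7), 68.7 (54 to 86.1) and 43 (32.9 to 55.1) CPM, 3.11-fold lower (2.04 to 4.88) in wild-type and 1.6-fold lower (1.13 to 2.27) in the pair labelled TRIF-KO. Erythroid-like cells, a class in which the gene is nearly silent, had 0.272, 1.35, 0.471 and 0.898 CPM.

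The classes that held most Fos UMIs differed between libraries. B-like cells held 9.96% of all Fos UMIs of the wild-type PBS library and 53.9% of those of the wild-type TNF library, and 22.6% and 30.6% in the libraries labelled TRIF-KO. Neutrophil-like cells held 46.5%, 12.1%, 25.3% and 44.2% in the same order, and were the class with most Fos UMIs in wild-type PBS and in the TNF library labelled TRIF-KO. Monocyte/macrophage-like cells held 21.7%, 3.51%, 25.8% and 2.23%. These shares depend also on how many cells of each class a library held.

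**Figure D2:**
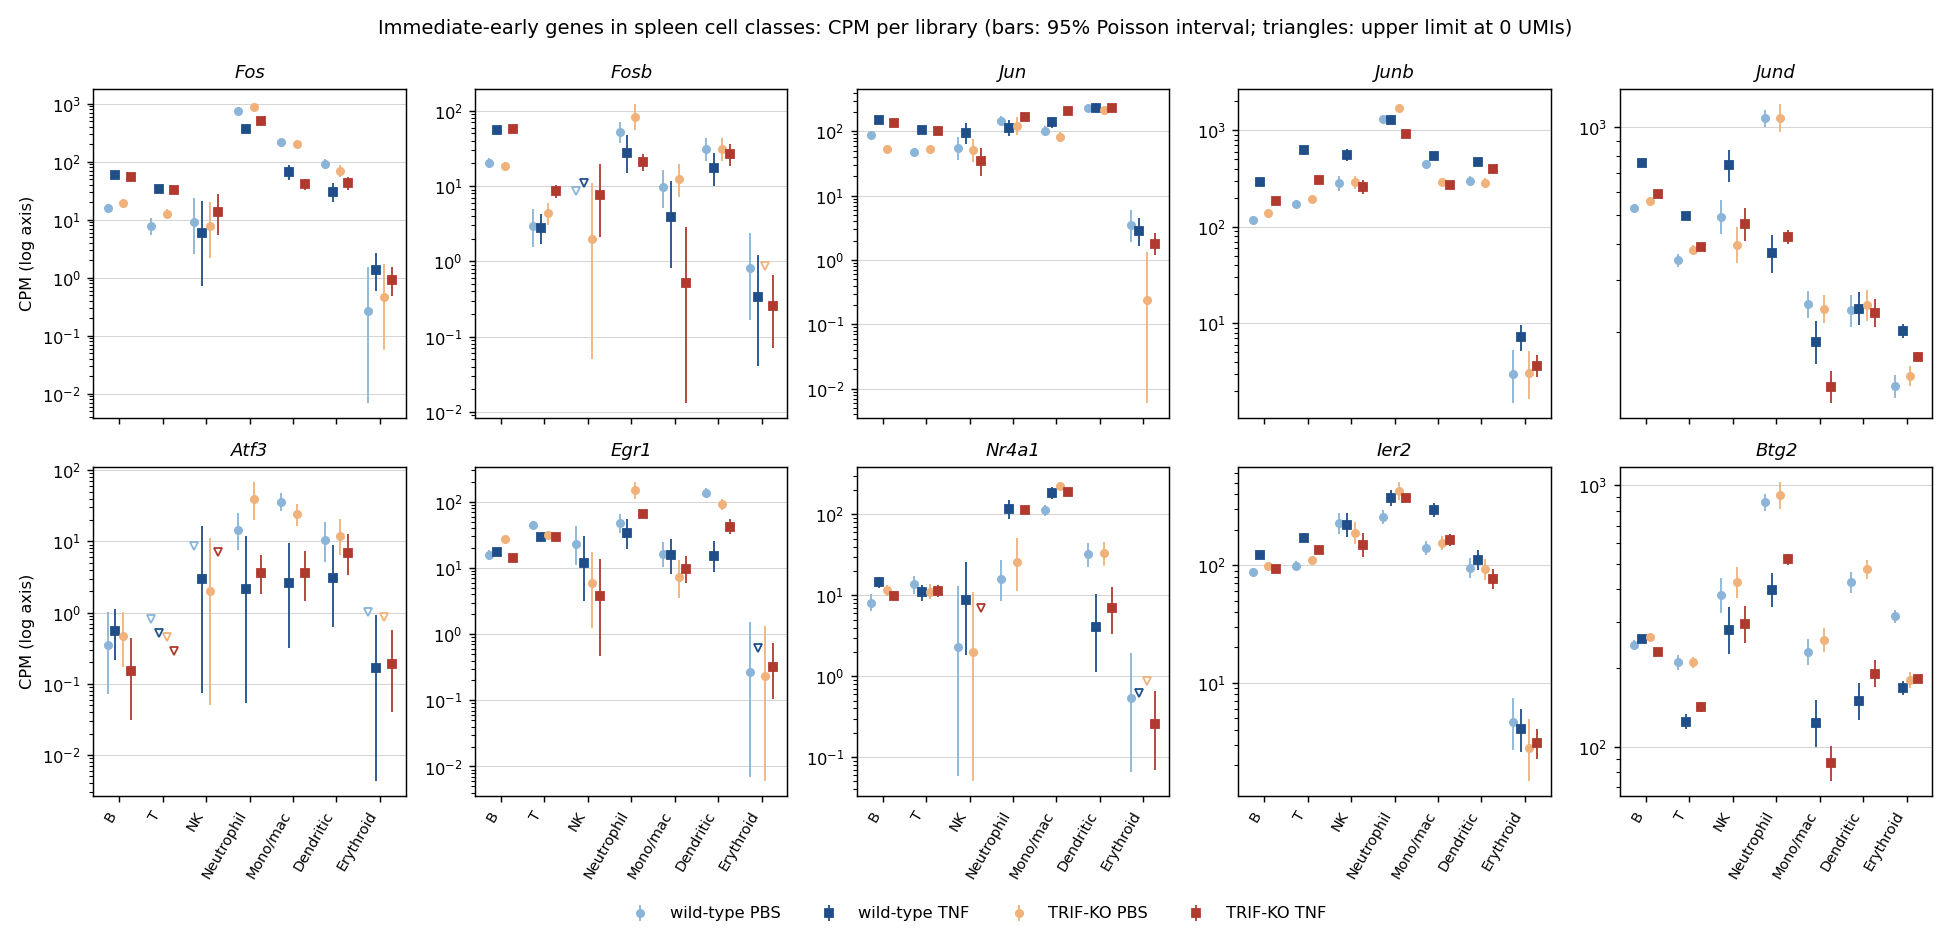
Level of each member in each class (CPM of the class total, log axis), with 1 point for each of the 4 libraries and bars for the exact 95% Poisson interval, which covers counting error only. The TNF points of Fos lie above the PBS points in B-like and T-like cells and below them in neutrophil-like, monocyte/macrophage-like and dendritic-like cells.

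Within the B-like class, follicular cells had 18.8, 66.8, 21.5 and 62.4 CPM of Fos and marginal zone cells 9.98, 41.5, 12.2 and 39.5 CPM. Marginal zone cells were lower than follicular cells in each library, and both were higher with TNF. Of the T-like subsets, CD4 cells had 1.47, 42.2, 11.8 and 34.9 CPM, CD8 cells 13.5, 31.8, 13 and 29.6 CPM and memory-like cells 6.54, 15, 16.3 and 25.1 CPM. Within the monocyte/macrophage-like class, monocytes had 239, 62.2, 254 and 47.8 CPM, and their level was 3.85-fold lower (2.69 to 5.67) with TNF in wild-type and 5.3-fold lower (4.03 to 7.06) in the pair labelled TRIF-KO. Macrophages had 10, 16, 4 and 14 UMIs, or 59.4, 74.7, 13.1 and 24 CPM, too few to show a difference at this depth, with intervals of the ratio that included 1 in both pairs.

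Fosb (chr7:19302696-19310051 on the minus strand, ENSMUSG00000003545), a second FOS partner, was measured in B-like and neutrophil-like cells only. In B-like cells it was at 20.1 (17.2 to 23.4), 54.8 (50.9 to 59), 18.3 (16 to 20.8) and 57.4 (54.1 to 60.8) CPM, and the 2 TNF libraries lay above the 2 PBS libraries as for Fos. It was 2.72-fold higher (2.3 to 3.23) with TNF in wild-type and 3.13-fold higher (2.72 to 3.62) in the pair labelled TRIF-KO. Neutrophil-like cells had 52.1, 27.9, 84 and 20.6 CPM of Fosb from 43, 13, 26 and 63 UMIs. The wild-type pair overlapped there, and in the pair labelled TRIF-KO the level was 4.08-fold lower (2.48 to 6.54) with TNF. Elsewhere Fosb stayed under the minimum, with 2.9, 2.76, 4.33 and 8.48 CPM in T-like, 9.65, 3.94, 12.3 and 0.515 CPM among monocyte/macrophage-like and 31.1, 17.4, 31.1 and 26.3 CPM among dendritic-like cells.

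Jun (chr4:95049034-95052222 on the minus strand, ENSMUSG00000052684) encodes the JUN protein that is activated by the stress kinase JNK. In B-like cells it was at 88.6 (82.4 to 95.2), 149 (142 to 156), 52.7 (48.8 to 56.9) and 135 (129 to 139.8) CPM. The TNF libraries were again above the PBS libraries, but the PBS libraries differed: the one labelled TRIF-KO was 1.68-fold lower (1.51 to 1.87) than wild-type PBS. Jun was 1.68-fold higher (1.55 to 1.83) with TNF in wild-type and 2.55-fold higher (2.34 to 2.78) in the pair labelled TRIF-KO. Follicular cells had 97.5, 148, 45.9 and 139.7 CPM, with the PBS library labelled TRIF-KO lowest, and marginal zone cells 71.6, 152, 72.2 and 124 CPM, with overlapping PBS libraries. In T-like cells Jun was at 48.3 (42 to 55.1), 105 (97.5 to 112), 53 (48.1 to 58.3) and 101 (95.1 to 106) CPM, 2.17-fold higher (1.86 to 2.54) and 1.9-fold higher (1.7 to 2.12), without overlap between treatments. In cells thinned to 1000 UMIs the wild-type ratio was 0.72 on the log2 scale in place of 1.12. The T-like subsets differed in direction. With 0.5 added to counts, the wild-type log2 ratio was 1.08 in CD4 and 1.30 in CD8 cells but -0.46 in memory-like cells. In the pair labelled TRIF-KO it was 0.90, 0.80 and 1.41 in the same order.

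In dendritic-like cells Jun was at 226 (199 to 257), 233 (204 to 265), 211 (185 to 241) and 232 (207 to 258) CPM, and the 4 intervals overlapped. The log2 ratio of TNF to PBS was 0.04 (-0.23 to 0.31) in wild-type and 0.13 (-0.12 to 0.38) in the pair labelled TRIF-KO, so that a 2-fold difference lies outside both intervals. In neutrophil-like cells the level was 144, 114, 123 and 164 CPM. Monocyte/macrophage-like cells had 101 (84.7 to 119), 138 (113 to 167), 82.7 (68.2 to 99.3) and 210.5 (191 to 232) CPM, 1.37-fold higher (1.05 to 1.78) with TNF in wild-type and 2.55-fold higher (2.06 to 3.16) in the pair labelled TRIF-KO. The last value depends on how cells were assigned: when each cell was gated on at least 3 class markers, 119 and 112 cells remained of the PBS and TNF libraries labelled TRIF-KO, and the log2 ratio of 1.35 became -0.82 (-0.44 for cells that cluster and gate placed in the same class). In the erythroid-like class Jun was at 3.53, 2.86, 0.236 and 1.8 CPM.

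Junb (chr8:84974484-84978718 on the minus strand, ENSMUSG00000052837) encodes a JUN protein that activates transcription less strongly than JUN in many settings and is a common partner of FOS and BATF in lymphocytes. It was measured in all classes other than erythroid-like cells. In T-like cells it was at 172 (159.7 to 184), 634 (616 to 652), 194 (185 to 204) and 304 (295 to 314) CPM. Wild-type TNF stood above the other 3 libraries, and the TNF library labelled TRIF-KO stood between it and the 2 PBS libraries, with no overlap of its interval with any of them. The level was 3.69-fold higher (3.42 to 3.99) with TNF in wild-type and 1.57-fold higher (1.48 to 1.66) in the pair labelled TRIF-KO. In B-like cells it was at 118 (111 to 125), 295 (286 to 305), 139 (133 to 146) and 187 (181 to 193) CPM, 2.51-fold higher (2.34 to 2.69) and 1.34-fold higher (1.26 to 1.42), with the same order of libraries at the top.

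Junb in NK-like cells was at 286 (237 to 341), 553 (477 to 638), 289.6 (245 to 341) and 262 (220.0 to 309.7) CPM. Wild-type TNF was high and the other 3 libraries overlapped. Neutrophil-like cells had 1320.3 (1243 to 1401), 1286 (1185 to 1393), 1722 (1579 to 1875) and 912 (878 to 946) CPM. The wild-type pair overlapped there, and the level was 1.89-fold lower (1.72 to 2.07) with TNF in the pair labelled TRIF-KO. The monocyte/macrophage-like level was 445 (409.8 to 482), 549 (498 to 604), 291 (263 to 321) and 273 (251 to 298) CPM, with both libraries labelled TRIF-KO below both wild-type libraries. Dendritic-like cells had 299 (267 to 334), 471 (429 to 516), 286 (255 to 319) and 398 (366 to 432) CPM, with both TNF libraries above both PBS libraries.

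CD4 T-like cells had 163, 736, 207 and 322 CPM of Junb, CD8 T-like cells 182, 560.4, 178 and 277 CPM and memory-like T cells 161, 452, 169.6 and 242 CPM. In each of these subsets wild-type TNF was the highest library. Follicular B-like cells had 139, 345, 162 and 214 CPM and marginal zone B-like cells 76.7, 173, 74.3 and 131 CPM, with the same library highest.

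Jund (chr8:70698949-70700616 on the plus strand, ENSMUSG00000071076) encodes a JUN protein that is present in many resting cells. It was the only member besides Btg2 measured in all 7 classes. In B-like cells it was at 529, 753, 560.2 and 590.0 CPM and in T-like cells at 351, 498, 382 and 390.0 CPM. In both, wild-type TNF was above the other 3 libraries, and it was 1.42-fold higher (1.37 to 1.48) than wild-type PBS in B-like cells and 1.42-fold higher (1.33 to 1.5) in T-like cells. The neutrophil-like level was 1075 (1006 to 1149), 371 (318 to 430.3), 1079 (967 to 1201) and 423 (400.2 to 447) CPM. Both PBS libraries were high and both TNF libraries low there, 2.9-fold lower (2.46 to 3.43) in wild-type and 2.55-fold lower (2.26 to 2.88) in the pair labelled TRIF-KO. The level was 495, 742, 397 and 467 CPM in NK-like, 249, 185, 240.1 and 129.7 CPM among monocyte/macrophage-like, 237, 240.2, 246 and 233 CPM among dendritic-like and 131, 202, 142 and 165 CPM in erythroid-like cells. In monocytes the log2 ratio, with 0.5 added to counts, was -1.18 in wild-type and -1.06 in the pair labelled TRIF-KO. There 20.7% and 13.1% of all genes were at least 2-fold lower. In macrophages it was 0.51 and -0.44. The class held 80, 52, 113 and 87 monocytes and 58, 117, 127 and 256 macrophages, and its level depends also on this mix.

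Atf3 (chr1:191170296-191218039 on the minus strand, ENSMUSG00000026628) encodes a stress-induced factor of the ATF family that can pair with JUN proteins and often represses its targets. It had 0 UMIs in T-like cells of all 4 libraries, where 3 counts would correspond to at most 0.67 CPM. B-like cells had 3, 7, 6 and 3 UMIs, and levels were higher in myeloid cells. Monocyte/macrophage-like cells had 48, 2, 33 and 7 UMIs, or 35.6 (26.3 to 47.2), 2.63 (0.318 to 9.49), 23.9 (16.5 to 33.6) and 3.6 (1.45 to 7.42) CPM. Both PBS libraries were above both TNF libraries without overlap, and the log2 ratio of TNF to PBS was -3.76 (-6.85 to -1.83) in wild-type and -2.73 (-4.15 to -1.53) in the pair labelled TRIF-KO. Neutrophil-like cells had 12, 1, 12 and 11 UMIs, or 14.5, 2.14, 38.8 and 3.59 CPM. Dendritic-like cells had 10.4, 3.08, 11.9 and 6.93 CPM. All of these are under the minimum set for a measured gene.

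Egr1 encodes a zinc finger factor that is induced through SRF and ELK downstream of ERK. It was measured in neutrophil-like and dendritic-like cells. In dendritic-like cells it was at 137 (115 to 161), 15.4 (8.62 to 25.4), 91.5 (74.5 to 111) and 42.3 (32.3 to 54.3) CPM. Both PBS libraries were high and wild-type TNF was lowest, from 15 UMIs. The level was 8.89-fold lower (5.21 to 16.3) with TNF in wild-type and 2.17-fold lower (1.56 to 3.03) in the pair labelled TRIF-KO, where the log2 ratio of -1.11 ran over the alternative settings from -0.99, with at most 5% mitochondrial UMIs per cell, to -2.95, with cells thinned to equal depth. The wild-type log2 ratio was -3.15, and -2.42 with the same thinning. Of the 2 larger dendritic-like clusters, 1 had 98, 0, 51.4 and 0 CPM and the other 200.1, 23.9, 129 and 81.1 CPM, each lower with TNF in both pairs. In neutrophil-like cells Egr1 was at 47.3 (33.6 to 64.6), 34.3 (19.6 to 55.7), 149 (109 to 198) and 66.7 (57.8 to 76.5) CPM, with the PBS library labelled TRIF-KO highest, 3.14-fold higher (2.01 to 4.95) than wild-type PBS. In the pair labelled TRIF-KO it was 2.23-fold lower (1.58 to 3.08) with TNF, a log2 ratio of -1.16 that was 0.00 after thinning. After each cell was thinned to 1000 UMIs the log2 ratio between these PBS libraries was 0.52 in place of 1.65. Other levels were under the minimum: 15.6, 17.5, 27.1 and 14 CPM in B-like, 44.5, 29.2, 32.1 and 29.2 CPM in T-like and 16.3, 15.8, 7.25 and 9.78 CPM among monocyte/macrophage-like cells.

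Nr4a1 (chr15:101254269-101274795 on the plus strand, ENSMUSG00000023034) encodes the orphan nuclear receptor NUR77, which reports antigen receptor signalling in lymphocytes and is needed for the patrolling, Ly6C-low monocyte. It was measured in neutrophil-like and monocyte/macrophage-like cells. In neutrophil-like cells it had 13, 54, 8 and 348 UMIs, or 15.8 (8.39 to 27), 116 (86.9 to 151), 25.8 (11.2 to 50.9) and 114 (102 to 126) CPM. Both TNF libraries were above both PBS libraries, 7.34-fold higher (3.95 to 14.7) in wild-type and 4.4-fold higher (2.21 to 10.3) in the pair labelled TRIF-KO. It was the only measured member that was at least 2-fold higher in neutrophil-like cells. Its monocyte/macrophage-like level was 113 (95.6 to 132), 183 (153 to 216), 223 (199 to 249.8) and 188 (169 to 208) CPM. Wild-type PBS was the lowest library there and the other 3 overlapped. With TNF the level was 1.62-fold higher (1.28 to 2.05) in wild-type and 1.19-fold lower (1.02 to 1.39) in the pair labelled TRIF-KO. In dendritic-like cells, under the minimum, it had 34, 4, 36 and 10 UMIs, or 32.1, 4.11, 33 and 6.93 CPM, with both TNF libraries below both PBS libraries. Monocytes had 120.5, 239, 272 and 254 CPM and macrophages 59.4, 37.3, 52.3 and 34.2 CPM, while B-like cells had 8.13, 14.4, 11.5 and 9.76 CPM.

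Ier2 (chr8:84661331-84662852 on the minus strand, ENSMUSG00000053560) encodes a small nuclear protein induced by growth factors. In monocyte/macrophage-like cells it was at 140.3 (121 to 162), 294 (257 to 335), 154 (134 to 177) and 164 (147 to 183) CPM. Wild-type TNF alone was high, 2.1-fold higher (1.72 to 2.56) than wild-type PBS, and the other 3 libraries overlapped. With no doublets removed the log2 ratio was 0.94 in place of 1.07. In T-like cells it was at 98.1 (89.1 to 108), 171 (162 to 181), 111 (104 to 118) and 133 (127 to 139.8) CPM and in B-like cells at 87.4 (81.2 to 93.9), 121 (116 to 128), 99.1 (93.7 to 105) and 92.4 (88.2 to 96.8) CPM, in both with wild-type TNF highest. The ratio was 1.75-fold higher (1.57 to 1.95) in T-like and 1.39-fold higher (1.27 to 1.52) in B-like cells of wild-type. Neutrophil-like cells had 258, 373, 427 and 369.9 CPM and NK-like cells 228, 221, 188 and 149 CPM. The dendritic-like level was 95.3, 111, 92.5 and 76.2 CPM.

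Btg2 (chr1:134075170-134079120 on the minus strand, ENSMUSG00000020423) encodes an antiproliferative protein that recruits the deadenylase complex to mRNA. In dendritic-like cells it was at 426 (387 to 467), 149.8 (127 to 176), 477 (437 to 519.7) and 191 (169 to 215) CPM. The PBS libraries were high and the TNF libraries low, 2.84-fold lower (2.35 to 3.45) in wild-type and 2.5-fold lower (2.16 to 2.91) in the pair labelled TRIF-KO, and each of the 2 larger clusters had the same order (457, 102, 378 and 81 CPM and 382, 169, 477 and 234 CPM). Thinned to equal depth, the wild-type log2 ratio was -0.95 in place of -1.51. In neutrophil-like cells it was at 859.6 (797 to 925), 399 (343 to 460.2), 914 (811 to 1027) and 522 (497 to 548) CPM, 2.16-fold lower (1.83 to 2.55) and 1.75-fold lower (1.54 to 1.99). Its level in monocyte/macrophage-like cells was 231 (206 to 258), 123 (99.8 to 151), 257 (231 to 285) and 86.5 (73.9 to 101) CPM, 1.87-fold lower (1.48 to 2.38) and 2.97-fold lower (2.46 to 3.59). T-like cells, at 210.5, 125, 211 and 142 CPM, were lower with TNF in both pairs by less than 2-fold, and the CD8 subset had 184, 86.3, 189 and 105 CPM. B-like cells, at 246, 259, 262 and 232 CPM, were close in the 4 libraries. Erythroid-like cells had 316, 168, 179.8 and 181 CPM with wild-type PBS highest, and NK-like cells 381, 279.6, 426 and 294 CPM.

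**Figure D3:**
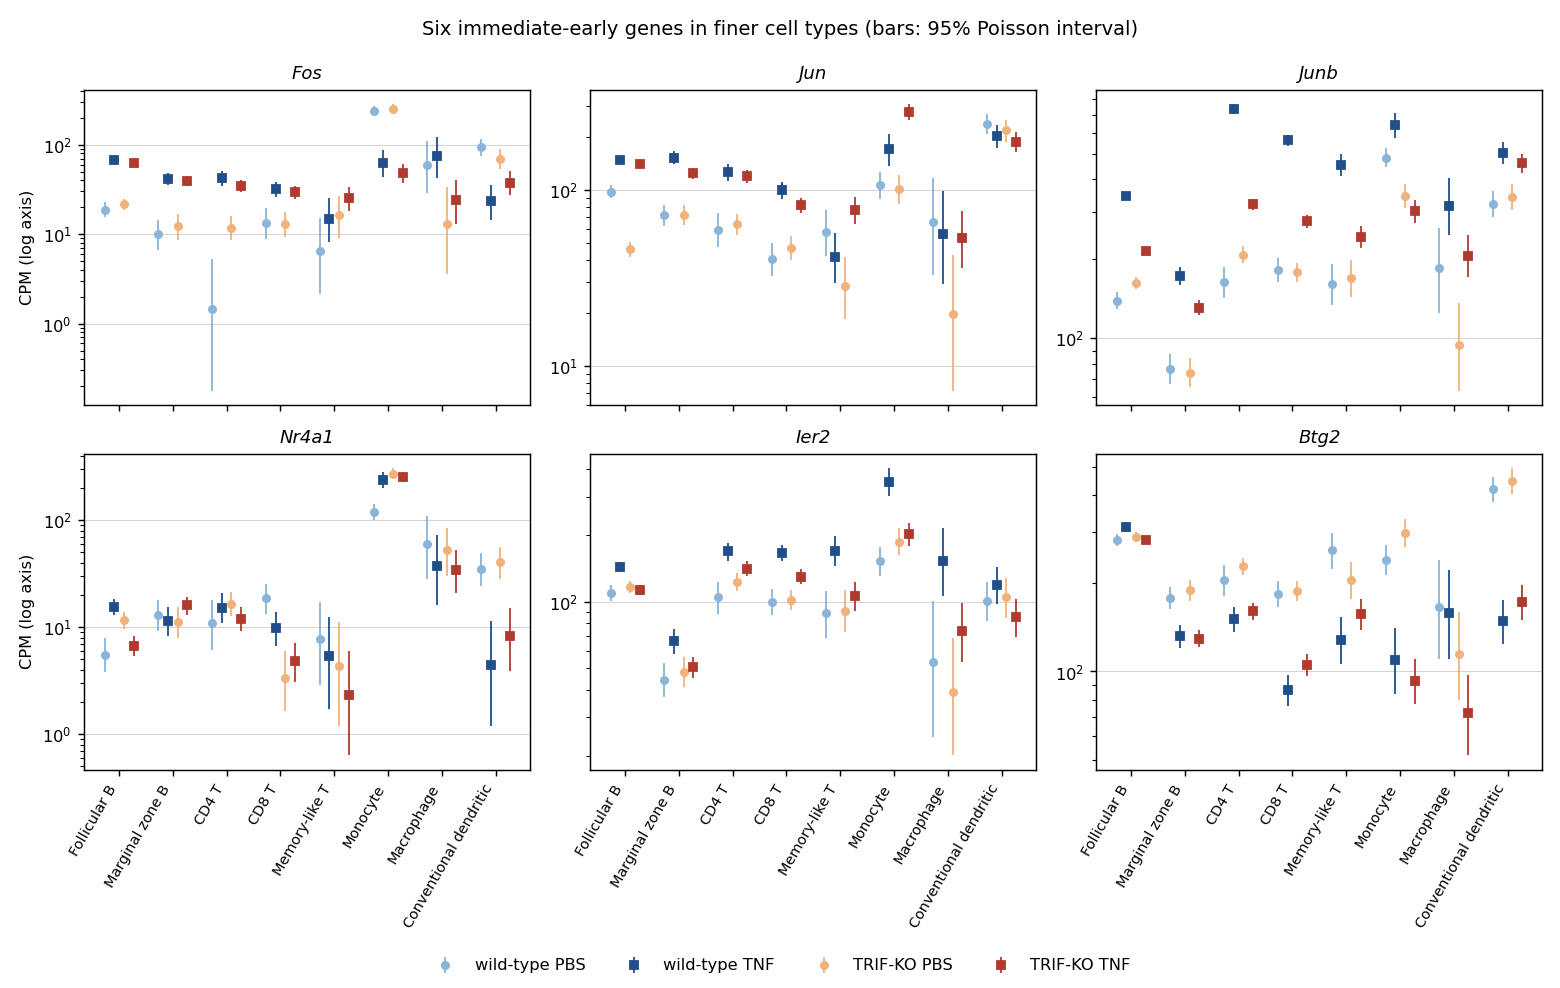
Level of Fos, Jun, Junb, Nr4a1, Ier2 and Btg2 (CPM, log axis) in the subsets of B-like, T-like, monocyte/macrophage-like and dendritic-like cells, with 1 point per library and exact 95% Poisson intervals for counting error. Fos in monocytes lies at 239 and 254 CPM in the PBS libraries and at 62.2 and 47.8 CPM in the TNF libraries, and Junb is highest in wild-type TNF in the T-like subsets.

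Several features of the myeloid classes differed between the same libraries. With PBS, nearly every neutrophil-like cell lay in 1 cluster (162 of 167 cells in wild-type and 97 of 101 in the library labelled TRIF-KO), and all 82 and 353 cells of the TNF libraries lay in another. Levels of granule genes of younger neutrophils were 3345, 12294, 7871 and 11668 CPM for Ngp and 2436, 10277, 8065 and 8561 CPM for Camp, against 2659.9, 726, 3034 and 819.9 CPM for Csf3r and 3997, 1502, 2175 and 1532 CPM for Cxcr2, which mark mature neutrophils. Monocytes with PBS lay in 1 cluster (80 of 80 and 113 of 113 cells) and with TNF in another (52 of 52 and 86 of 87), with Ccr2 in the class at 1478, 97.2, 1116 and 126 CPM and Treml4 at 103, 578, 169 and 636 CPM. In dendritic-like cells Ccr7, a marker of migratory cells, was at 37.7, 883, 169 and 532 CPM and Xcr1 at 249, 4.11, 117 and 20.1 CPM, and the summed level of 8 neutrophil markers was 4808, 122, 23.8 and 182 CPM, with 8, 7, 6 and 5 of the 8 detected. Monocyte/macrophage-like cells held 872, 7741, 11356 and 5989 CPM of 9 erythroid markers, with 8, 9, 8 and 9 of them detected. Median UMIs per cell were 11560, 1488, 5189.5 and 1610 in that class, 12839, 2934.5, 3412 and 3970.5 in dendritic-like cells and 4363, 4950, 2545 and 7594 in neutrophil-like cells. The part of these shifts in the myeloid differences of the members was not tested. With no doublets removed, the wild-type log2 ratios in neutrophil-like cells were -0.35 for Fos, -0.94 for Jund and -0.44 for Btg2, in place of -1.03, -1.54 and -1.11, all under 2-fold. When cells were gated one by one on markers, Nr4a1 in the pair labelled TRIF-KO was at 0.80 in place of 2.14. A lower class level can come from fewer cells that express a gene or from less RNA in each of them.

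The 15 genes of a dissociation and heat shock list were followed in the same classes. Their summed level was 4706, 3489, 3749 and 3629 CPM in B-like, 5072, 3409, 4003 and 3743 CPM in T-like, 2077, 1622, 1457 and 1359 CPM among neutrophil-like, 6430.2, 4299, 3739 and 4630.1 CPM among monocyte/macrophage-like cells. For dendritic-like cells it was 6099, 3448, 4182 and 3524 CPM. In wild-type, 2 of 9 measured genes of the list were at least 2-fold lower with TNF in B-like, 2 of 10 in T-like, 1 of 9 in NK-like, 2 of 6 in neutrophil-like, 3 of 9 in monocyte/macrophage-like and 2 of 8 in dendritic-like cells, and none was higher in these. Of all genes, 1.84%, 4.93%, 10.6%, 26.8%, 18.4% and 16.3% were lower in the same classes, so the shares in NK-like and neutrophil-like cells lay near those of all genes. In the pair labelled TRIF-KO the counts were 0, 0, 0, 1, 1 and 0 lower, with 2 higher in monocyte/macrophage-like cells. In B-like and T-like cells wild-type PBS was thus the highest library, while Fos and Junb in B-like cells and Jun and Junb in T-like cells were at least 2-fold higher with TNF. In wild-type dendritic-like cells the list and the members Fos, Egr1 and Btg2 were all lower with TNF. Hspa1a, a heat-inducible chaperone of the list, did not exceed 19.8 CPM in any class. The part of dissociation in the members' levels was not tested.

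The genotypes were first compared with PBS. Of the 42 measured member values, 1 was at least 2-fold different between the library labelled TRIF-KO and wild-type, Egr1 in neutrophil-like cells, where 4.87% of the values of all measured genes were. In that class 5.45% of all genes were at least 2-fold higher. With TNF, 5 were at least 2-fold different (4.86% of all values). Junb in the library labelled TRIF-KO was 2.09-fold lower (2.0 to 2.18) in T-like cells, 2.11-fold lower (1.69 to 2.65) in NK-like cells and 2.01-fold lower (1.76 to 2.29) in monocyte/macrophage-like cells. Jun in NK-like cells, at 55.7, 94.2, 51.6 and 34.4 CPM, was 2.74-fold lower (1.49 to 5.18), from 32 and 18 UMIs. In these classes 1.09%, 1.49% and 2.08% of all measured genes were at least 2-fold lower. Thinned to 1000 UMIs per cell, the log2 ratio of Junb was -0.45 in place of -1.08 in NK-like cells and -0.85 in place of -1.01 in monocyte/macrophage-like cells. Egr1 in dendritic-like cells was 2.75-fold higher (1.54 to 5.2), where 4.49% of all genes were at least 2-fold higher, a ratio that was 0.26 on the log2 scale, in place of 1.46, once cells were thinned to equal depth.

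The response to TNF in the pair labelled TRIF-KO was then set against that in wild-type as the difference of their log2 ratios. Such differences were not computed for all measured genes, so no share of all genes can be set beside them. An interval that leaves out 0 therefore does not set a member apart from other genes. For Junb this difference was -0.91 (-1.04 to -0.78) in B-like, -1.24 (-1.38 to -1.10) in T-like, -1.10 (-1.56 to -0.63) in NK-like, -0.88 (-1.08 to -0.68) in neutrophil-like and -0.40 (-0.65 to -0.14) in monocyte/macrophage-like cells. It was below 0 in these 5 classes, with intervals that left out 0, and in dendritic-like cells it was -0.18 (-0.46 to 0.11), with an interval that included 0. By subset it was -1.54 (-1.78 to -1.30) in CD4 T-like cells, -0.98 (-1.20 to -0.77) in CD8 T-like cells, -0.91 (-1.06 to -0.77) in follicular and -0.35 (-0.66 to -0.05) in marginal zone B-like cells. Within the monocyte/macrophage-like class it was -0.61 (-0.89 to -0.33) in monocytes and, in the other direction with an interval that included 0, 0.33 (-0.52 to 1.17) in macrophages. Ier2 differed in the same direction, by -0.58 (-0.74 to -0.41) in B-like, -0.54 (-0.73 to -0.34) in T-like and -0.98 (-1.36 to -0.61) in monocyte/macrophage-like cells, and so did Jund, by -0.44 (-0.50 to -0.37) in B-like and -0.47 (-0.58 to -0.36) in T-like cells.

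Other members gave another picture. Jun differed in the opposite direction in B-like cells, by 0.60 (0.43 to 0.77), and in T-like cells the difference was -0.19 (-0.46 to 0.08), with an interval that included 0. For Jun it was 0.74 (0.08 to 1.40) in neutrophil-like and 0.89 (0.42 to 1.36) in monocyte/macrophage-like cells. The last rests on a ratio that was reversed with the gate on at least 3 markers. By subset Jun went both ways. It was 1.0 (0.80 to 1.21) in follicular B-like and 1.88 (1.01 to 2.74) in memory-like T cells, while in CD8 T-like cells it was -0.49 (-0.93 to -0.05), and in NK-like cells -1.32 (-2.46 to -0.18). In marginal zone B-like cells it was -0.31, with an interval that included 0. Fosb in B-like cells gave 0.20 (-0.11 to 0.52), an interval that included 0, and in neutrophil-like cells -1.18 (-2.28 to -0.08). Btg2 went both ways, with -0.25 (-0.36 to -0.15) in B-like and 0.18 (0.02 to 0.34) in T-like cells. It gave -0.67 (-1.10 to -0.25) in monocyte/macrophage-like and 0.92 (0.75 to 1.09) in erythroid-like cells. In NK-like, neutrophil-like and dendritic-like cells its interval included 0. Not every measured difference is listed here. Fos gave -0.39 (-0.72 to -0.06) in B-like cells and 0.94 (0.18 to 1.71) in dendritic-like cells, of opposite sign, and 0.25 (-0.05 to 0.56) in neutrophil-like cells. Egr1 in dendritic-like cells gave 2.0 (1.12 to 2.88). There the PBS libraries had 137 and 91.5 CPM, wild-type first, a log2 ratio of -0.58 (-0.96 to -0.20), and the TNF libraries 15.4 and 42.3 CPM, a log2 ratio of 1.46 (0.63 to 2.38), or 0.26 when thinned. With cells thinned to equal depth, the log2 ratio of TNF to PBS was -2.42 in wild-type and -2.95 in the pair labelled TRIF-KO. The difference between the Egr1 responses thus had the opposite sign at equal depth. Each of these intervals rests on the UMIs of 4 libraries and leaves out differences between animals, and the genotype and the library cannot be told apart.

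**Figure D4:**
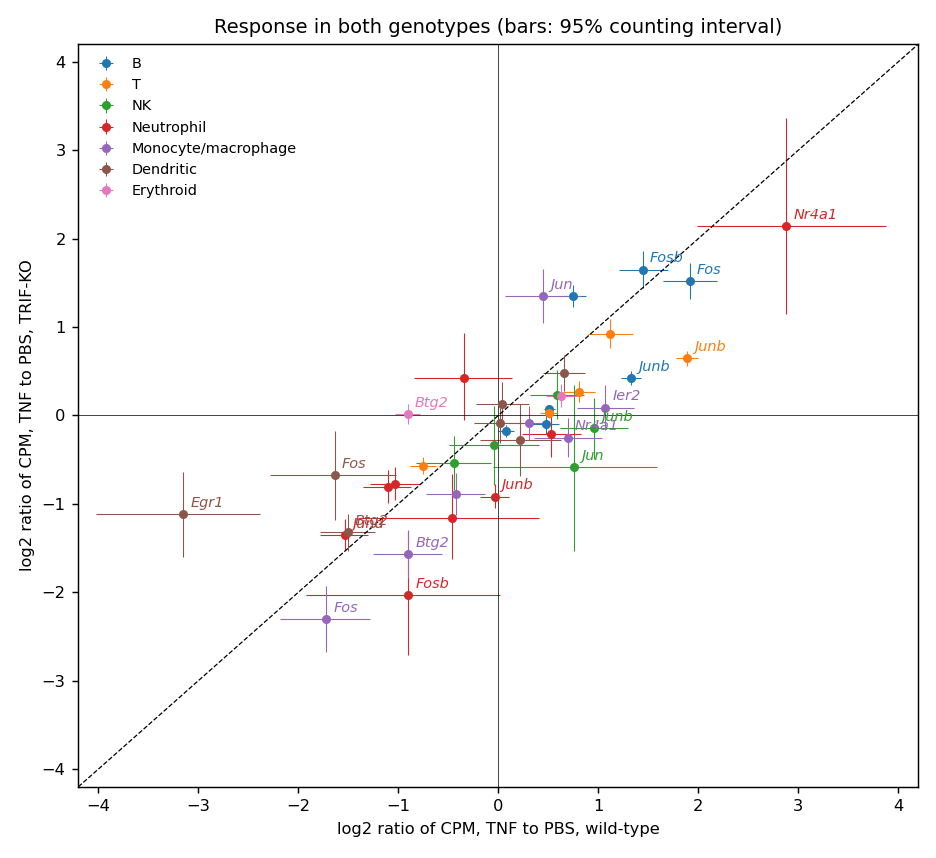
Log2 ratio of TNF to PBS in wild-type (x axis) against that in the pair labelled TRIF-KO (y axis) for each measured member and class, with 95% counting intervals and the line of equal ratios. The Junb points of T-like (1.89 and 0.65), B-like (1.33 and 0.42) and NK-like cells (0.95 and -0.14) lie below the line.

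The share of cells with at least 1 UMI was compared after each cell was thinned to 1000 UMIs, since cell depth differed between libraries. Cells under that depth were left out: 0, 5, 2 and 4 T-like, 14, 27, 38 and 33 B-like, 0, 2, 1 and 3 neutrophil-like and 23, 61, 62 and 114 monocyte/macrophage-like cells. The last were all macrophages, which left 80, 52, 113 and 87 monocytes and 35, 56, 65 and 142 macrophages. The shares in that class depend also on this mix. Junb was found in 15.1, 45.4, 17.3 and 25.5% of T-like cells and in 11.5, 24.8, 11.8 and 16.7% of B-like cells, against 0, 0.797, 0.543 and 0.0906% of erythroid-like cells, a class used here as background. With 0 of 244 cells in wild-type PBS the exact upper limit is 1.5%. Median depth before thinning was 9399, 6376.5, 5987 and 8840 UMIs in T-like and 15868, 12361.5, 11396 and 13987 UMIs in erythroid-like cells. Before thinning the T-like shares were 66.9, 94.2, 59.3 and 78.9%. Fos was found in 1.56, 5.17, 1.32 and 4.95% of B-like cells. It was found in 45.5, 35, 52 and 37.1% of neutrophil-like, 13, 5.56, 11.2 and 2.18% of monocyte/macrophage-like and 0, 0, 0 and 0.272% of erythroid-like cells. The 3 shares of 0, of 244, 502 and 368 erythroid-like cells, allow up to 1.5%, 0.732% and 0.997%. The directions were those of the summed levels. Unthinned, the B-like shares of Fos were 7.69, 18.5, 4.82 and 21.9% and the neutrophil-like ones 80.8, 65.9, 79.2 and 82.4%.

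**Figure D5:**
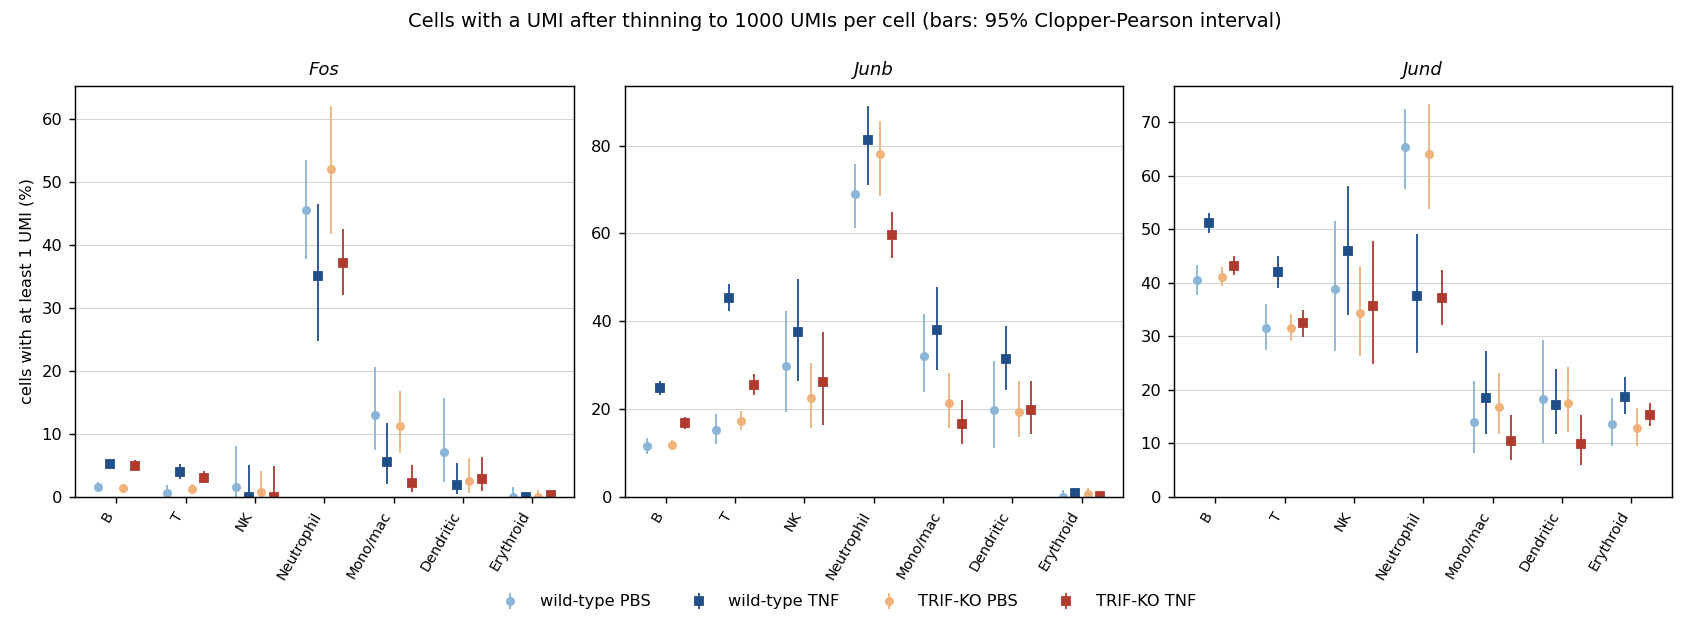
Percentage of cells with at least 1 UMI of Fos, Junb and Jund after every cell was thinned to 1000 UMIs, by class and library, with exact 95% binomial intervals for counting error. Junb in T-like cells stands at 45.4% in wild-type TNF and between 15.1% and 25.5% in the other 3 libraries.

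The mean number of the 10 members found per thinned cell was 0.943, 1.36, 0.942 and 1.14 in B-like, 0.82, 1.31, 0.888 and 0.988 in T-like cells and 2.77, 2.48, 3.26 and 2.52 in neutrophil-like cells. It was 1.19, 1.21, 1.07 and 0.624 in monocyte/macrophage-like cells, 1.1, 0.822, 1.03 and 0.687 in dendritic-like cells and 0.414, 0.382, 0.31 and 0.312 in erythroid-like cells. Neutrophil-like cells thus held the most members in every library. Among the 76 thinned neutrophil-like cells of wild-type PBS with a Fos UMI, 67.1% (exact 95% interval 55.4 to 77.5) also had Btg2, against 37.4% (27.4 to 48.1) of those without Fos. For Junb the shares were 78.9% and 60.4%. In neutrophil-like cells of the TNF library labelled TRIF-KO, Jund was found in 49.2% of cells with Fos and 30% of cells without. In B-like cells of wild-type TNF, Jund was found in 62% (53.5 to 70) of the 142 cells with Fos and 50.5% (48.6 to 52.4) of the others. These pairs were picked after their values were seen, and cells of 1 library are not replicates.

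Other genes of the pathway were taken from fixed lists and counted in the same way, with the wild-type count first and that of the pair labelled TRIF-KO second, and the shares of all genes as given above. In neutrophil-like cells those shares were 10.6% and 9.15% higher and 26.8% and 24.1% lower. The neutrophil-like counts of other immediate-early transcription factors and effectors below lie near them. Of 15 other AP-1 and related factors, 0 and 0 of 3 were higher and 0 and 0 lower in B-like cells, 1 and 1 of 3 were higher and 0 and 0 lower in T-like cells, and 2 and 1 of 6 were higher and 1 and 1 lower in monocyte/macrophage-like cells. In dendritic-like cells 1 of 4 was higher in each pair, Jdp2 in both, and in neutrophil-like cells 1 of 7 in each pair. This was Batf in wild-type, with a log2 ratio of 1.13, and Mafg, a small MAF protein, in the pair labelled TRIF-KO, with 1.11, so not the same gene. In NK-like cells it was 0 of 2. Jdp2, which encodes a JUN partner that represses AP-1 sites, was at 17.1, 301, 14.5 and 172 CPM among monocyte/macrophage-like cells and at 8.49, 78, 18.3 and 49.9 CPM among dendritic-like cells, in both higher with TNF, where Fos was lower. Its log2 ratios were 4.14 and 3.57 in the first and 3.20 and 1.45 in the second. Batf, a partner of JUNB in lymphocytes, was at 32, 110.0, 25.3 and 53 CPM in T-like cells, with log2 ratios of 1.78 and 1.07. Wild-type TNF was its highest library, as for Junb.

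Of 14 genes that feed back on MAP kinase signalling or on mRNA decay, 2 and 2 of 6 were higher and 0 and 0 lower in B-like cells, 0 and 1 of 4 were higher and 0 and 0 lower in T-like cells, and 0 and 0 of 6 were higher and 0 and 3 lower in NK-like cells. In myeloid cells 1 and 0 of 7 were higher and 2 and 2 lower in neutrophil-like cells, 3 and 3 of 7 were higher and 1 and 1 lower in monocyte/macrophage-like cells, and 4 and 4 of 7 were higher and 0 and 0 lower in dendritic-like cells. Dusp1, a phosphatase that inactivates p38 and JNK and is itself an immediate-early gene, was at 8.48, 84.1, 8.45 and 47.3 CPM in B-like, 75, 588, 134 and 321 CPM among monocyte/macrophage-like and, for dendritic-like cells, 72.7, 411, 87 and 317 CPM, higher with TNF in both pairs in each. It was therefore higher with TNF in monocyte/macrophage-like and dendritic-like cells, where Fos was lower. In neutrophil-like cells it was at 1622, 2458, 1754 and 1549 CPM. Dusp2, another MAP kinase phosphatase, had log2 ratios of 4.21 and 3.08 in monocyte/macrophage-like cells.

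Of 18 other immediate-early transcription factors, 1 and 2 of 7 were higher and 1 and 0 lower in B-like cells, 3 and 1 of 6 were higher and 0 and 0 lower in T-like cells, and 1 and 1 of 5 were higher and 2 and 1 lower in NK-like cells. In myeloid cells 1 and 2 of 10 were higher and 3 and 2 lower in neutrophil-like cells, 0 and 0 of 10 were higher and 4 and 4 lower in monocyte/macrophage-like cells, and 1 and 1 of 6 were higher and 1 and 1 lower in dendritic-like cells. Nr4a3, a relative of Nr4a1, was at 1.89, 74.9, 4.58 and 49.2 CPM among dendritic-like cells, from 2, 73, 5 and 71 UMIs. It was higher with TNF in both pairs, whereas Nr4a1 in the same cells was at 32.1, 4.11, 33 and 6.93 CPM. Arid5a, Cebpb and Irf1 in T-like cells had wild-type log2 ratios of 2.07, 1.78 and 1.12.

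Of 21 other immediate-early effectors, 1 and 1 of 7 were higher and 0 and 0 lower in B-like cells, 2 and 1 of 7 were higher and 0 and 0 lower in T-like cells, and 2 and 2 of 9 were higher and 0 and 0 lower in NK-like cells. In myeloid cells 2 and 2 of 15 were higher and 4 and 5 lower in neutrophil-like cells, 6 and 4 of 14 were higher and 2 and 1 lower in monocyte/macrophage-like cells, and 5 and 2 of 11 were higher and 3 and 1 lower in dendritic-like cells. Ppp1r15a and Cd69 led in wild-type monocyte/macrophage-like cells, with log2 ratios of 2.94 and 0.84 for Ppp1r15a and 2.62 and 1.71 for Cd69, wild-type first. Of 19 kinases and ELK factors upstream of AP-1, 0 and 0 of 5 were higher and 0 and 0 lower in B-like cells, 2 and 2 of 6 were higher and 0 and 0 lower in T-like cells, and 0 and 0 of 6 were higher and 1 and 0 lower in NK-like cells. In myeloid cells 1 and 1 of 11 were higher and 1 and 1 lower in neutrophil-like cells, 1 and 1 of 11 were higher and 3 and 1 lower in monocyte/macrophage-like cells, and 0 and 0 of 6 were higher and 2 and 1 lower in dendritic-like cells. Map3k8, the kinase TPL2, and Mapkapk2, a target of p38, were the 2 that were higher in T-like cells, with log2 ratios of 2.63 and 1.66 for Map3k8 and 1.96 and 1.32 for Mapkapk2. Of 24 targets of NF-kB, 2 and 1 of 12 were higher and 0 and 0 lower in B-like cells, 8 and 6 of 13 were higher and 0 and 0 lower in T-like cells, and 10 and 8 of 15 were higher and 2 and 1 lower in NK-like cells. In myeloid cells 17 and 16 of 23 were higher and 1 and 1 lower in neutrophil-like cells, 17 and 15 of 22 were higher and 0 and 0 lower in monocyte/macrophage-like cells, and 13 and 6 of 19 were higher and 0 and 0 lower in dendritic-like cells.

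The median log2 ratio of TNF to PBS over the measured members, set against that of all measured genes, was 0.75 against -0.14 in B-like, 0.80 against -0.15 in T-like, 0.58 against -0.16 in NK-like, -0.46 against -0.37 in neutrophil-like, 0.30 against -0.21 in monocyte/macrophage-like and 0.02 against -0.21 in dendritic-like cells of wild-type. In the pair labelled TRIF-KO it was 0.42 against -0.01, 0.27 against 0.06, -0.34 against -0.10, -0.81 against -0.42, -0.25 against 0.02 and -0.28 against -0.05 in the same order. These medians leave out members under the minimum.

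As a last description, genes whose levels over the 28 class-by-library sums were most like those of 6 members were listed among 467 genes measured in all classes, by Pearson's r of log2(CPM + 20). The points share libraries and classes, and much of each r reflects differences between classes. The members themselves did not have to be measured in all classes. Atf3 was measured in none, with 74, 15, 65 and 35 UMIs in the whole libraries, so its r values rest on few UMIs. Egr1 and Nr4a1 were under the minimum in most classes. The closest were Atp6v1g1 (0.89), Taldo1 (0.86) and Neat1 (0.85) to Fos, Actb (0.90) and Tmsb4x (0.86) to Jun, and Ube2d3 (0.92), Arpc5 (0.92) and Sem1 (0.91) to Junb. For Nr4a1 they were Atp6v0c (0.79), BC005537 (0.79) and Atp6v1e1 (0.77), for Atf3 Taldo1 (0.85), Fis1 (0.78) and Itm2b (0.70), and for Egr1 Mcl1 (0.65), Gnai2 (0.62) and Pet100 (0.60). Once each class mean was subtracted, H2-T23 (0.71), Gas5 (0.69) and Ndufb11 (0.68) were closest to Fos and H3f3b (0.79), Btg1 (0.71) and Srsf5 (0.69) to Junb. H3f3b (0.57), Psma2 (0.56) and Ncl (0.53) were closest to Jun. For the other 3 they were mt-Co1 (0.78), mt-Co3 (0.72) and mt-Co2 (0.69) to Nr4a1, Rnaseh2c (0.87), Ucp2 (0.86) and Tomm7 (0.85) to Atf3, and Gabarapl2 (0.66), Ago2 (0.62) and Atpif1 (0.61) to Egr1. Among the members themselves, Junb and Ier2 had the highest r over levels (0.95), and within classes Fos and Fosb had 0.77 and Fos and Jun -0.01.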

How the data were processed

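Gene-by-cell UMI counts of the 4 libraries were used as the authors deposited them. The submitters' processing notes name Cell Ranger 3.0, Seurat 4.1.1 and the mm10 genome, while the matrices carry Cell Ranger 6.0.1, per the file headers. The deposited counts are not normalized, and no cell labels were used. Barcodes under 200 genes or above 10% mitochondrial UMIs were dropped, and doublets were scored within each library and removed at 0.8% per 1000 barcodes (54 to 295 cells in 3 libraries and 455 in the TNF library labelled TRIF-KO). Clusters were computed with scanpy 1.11.5 (2000 variable genes without the members and response lists, 30 components, 15 neighbours, Leiden resolution 1), and all 24 were named from marker lists.

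For each library, the UMIs of a class were added up and divided by the class total (CPM). Intervals are exact Poisson, exact conditional (ratios), Clopper-Pearson (shares) or, for the difference between 2 responses, a normal approximation with 0.5 added to each count. With 1 library per group no test was made and "called" means past 2-fold. The code was checked on Poisson counts simulated at the depths of the wild-type PBS and TNF libraries. There 98% to 100% of genes changed 4-fold were called in each class, and at most 1.14% of unchanged genes were. These counts follow the model that the intervals assume, with no spread between cells or animals. The check therefore gives no error rate for comparisons of single libraries. Python 3.11.15, numpy 2.4.6, scipy 1.17.1, pandas 2.3.3 and matplotlib 3.10.9 were used.

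The members and gene lists were chosen with earlier results of these data known. Named genes are the 10 members; from each other list, genes among the 3 highest and 3 lowest ratios past 2-fold, ranked by the interval bound nearest to 1; the 3 genes most like each of 6 members, of which 1 is not reported here; and Ticam1. Levels, markers and heat shock genes set beside a result are named for that reason. Alternatives covered scaling, cell weighting, single cells, depth, mitochondrial and doublet filters, cell gating and the low-count minimum. A gate on at least 3 markers was tried first and replaced, after its values had been seen, by the looser gate reported as the planned one; both are given.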

Additional observations from a re-analysis of the deposited data

Results flagged for a closer look

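Nr4a1 in monocyte/macrophage-like cells was higher with TNF than with PBS in wild-type, with a log2 ratio of 0.69 (0.35 to 1.04), and lower in the pair labelled TRIF-KO, at -0.25 (-0.47 to -0.03). Subtracting the wild-type response from that of the pair labelled TRIF-KO gave -0.95 (-1.34 to -0.55). It was singled out because the single wild-type pair and the single pair labelled TRIF-KO went in opposite directions. The difference was not tested, since each group has 1 library, and the intervals cover counting error only. Such a difference was not computed for all measured genes, so no share of all genes is set beside it. The 2 PBS libraries differed more than the 2 TNF libraries: 113 and 223 CPM with PBS against 183 and 188 CPM with TNF. By subset, with 0.5 added to counts, the log2 ratios in monocytes were 0.99 in wild-type and -0.10 in the pair labelled TRIF-KO. In macrophages, where Nr4a1 was under the minimum, they were -0.65 and -0.62. The class held 80, 52, 113 and 87 monocytes and 58, 117, 127 and 256 macrophages. The part of this mix in the flagged difference was not tested.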

How the results depend on the processing

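Over 11 alternative settings, 323 values were recomputed for the 32 member ratios that were at least 2-fold. Of these, 268 stayed inside the counting interval of the reported value, 53 lay outside it in the same direction and 2 were reversed. These 2 are Jun in monocyte/macrophage-like cells of the pair labelled TRIF-KO, at -0.82 with the gate on at least 3 markers and -0.44 where that gate and the cluster agreed, in place of 1.35; the cause was not tested. A total of 35 values, from 15 ratios, were under 2-fold. With thinning 22 of 32 lay outside the interval and 9 were under 2-fold.

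The count of member values 2-fold different between the PBS libraries was 1. It was 2 with median-of-ratios scaling, without mitochondrial, ribosomal, haemoglobin and immunoglobulin genes, with cells weighted equally, without the top cell, with at most 5% mitochondrial UMIs, with cells gated on markers and where gate and cluster agreed, and 4 with thinning or with no doublets removed. The 7 lower values in wild-type became 4 with no doublets removed, with the gate and where gate and cluster agreed, 2 with the gate on at least 3 markers and 3 for cells it placed in the class of their cluster. Between the libraries labelled TRIF-KO the gate gave 4 lower in place of 7 and 3 higher in place of 5. The 5 values that differed with TNF became 3 with that same restriction. With no minimum for a measured gene the counts were 15 lower and 13 higher in wild-type, 14 and 11 in the pair labelled TRIF-KO, and 9 between the PBS and 16 between the TNF libraries.

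The gates compare fewer classes, since under them fewer than 50 dendritic-like cells remained in a library. Under the stricter ones too few wild-type monocyte/macrophage-like cells remained as well. That part of the lower counts follows from their construction. No dendritic-like ratio could be recomputed under any gate. Gates other than the planned one were chosen after seeing the data, and the looser gate itself was set after values under the stricter one were known. Median-of-ratios scaling put the centre of the neutrophil-like log2 ratios at -0.31 in wild-type and -0.46 in the pair labelled TRIF-KO, and that of wild-type B-like and T-like cells at -0.19. Relative to that centre Fos (-0.72) and Btg2 (-0.80) in wild-type and Jund (-0.89) and Egr1 (-0.70) in the pair labelled TRIF-KO were under 2-fold in neutrophil-like cells. No paired analysis was possible because each group has 1 library. Depth limits what can be said of Atf3, which was under the minimum in every class, and of Nr4a1 in neutrophil-like cells, which rests on 13 and 8 UMIs with PBS.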
